A study of Mus musculus with 6 samples.

Results

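Gm44248, Gm43238, Gm42755, Gm21897 and Gm43300 are 5 predicted mouse genes without a given name that had higher read counts in exposed than in control fetal ovaries. They are 5 of the 48709 genes in the count table and were chosen for that difference, so their levels are given here as a description and no test is read from them. The ovaries were taken at 13.5 days post coitum (dpc) from CD1 mice, an outbred strain, with no engineered allele in either group. The 3 exposed libraries came from litters of dams gavaged from 10.5 dpc with acetaminophen (APAP, 30 mg/kg/day) and ibuprofen (IBU, 15 mg/kg/day). The 3 control libraries came from litters of dams given the ethanol diluent alone. The drugs were given in diluted ethanol, so dams of both groups received it. The title of each exposed sample mentions only Ibu; the exposure label, APAP+IBU, is followed here. Each library is a pool of whole gonads, and polyadenylated RNA was sequenced.

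Gene symbols that begin with Gm followed by a number are placeholders for loci annotated from sequence, and many of them cover remains of mobile elements. LINE-1 is an abundant mobile element of the mouse genome that is still active. It encodes an RNA-binding protein, ORF1p, and a larger protein, ORF2p, with endonuclease and reverse transcriptase activities, and it moves by copying its RNA back into DNA. Endogenous retroviruses are inherited retroviral copies, whose gag gene encodes the proteins of the particle core. Female germ cells of this stage have erased much of their DNA methylation and are entering meiosis, and silencing of mobile elements by DNA methylation, histone marks and small RNAs is a known concern of these cells. The class TEC is used by Ensembl for mostly single-exon loci with transcript evidence and a polyadenylation signal whose product is still unproven. A single-exon locus inside an intron, on the strand of its host, cannot be told apart in short reads from unspliced host RNA.

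All 5 loci had 1 exon. No repeat annotation was used here: the mobile elements named below were recognised from the transcript sequence and its reading frames, with general knowledge of these elements, and not by a search against a repeat library. Gm43238 (TEC, 359 bases, chromosome 5, plus strand) has the sequence of a stretch of LINE-1 ORF1, and its whole length read through without a stop codon in 1 frame, for 119 codons. The closest partner of the same length is Gm37404, a TEC locus on chromosome 3, which differed from it at 6 of 359 bases. Their last 120 bases are shown because reads from such near-identical copies are hard to assign; capitals mark bases of Gm37404 that differ, at chr5:62428958-62429077 and chr3:62123446-62123565, both on the plus strand of GRCm38.
Gm43238: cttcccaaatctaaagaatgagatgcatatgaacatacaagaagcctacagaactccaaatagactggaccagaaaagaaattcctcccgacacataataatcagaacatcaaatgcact
Gm37404: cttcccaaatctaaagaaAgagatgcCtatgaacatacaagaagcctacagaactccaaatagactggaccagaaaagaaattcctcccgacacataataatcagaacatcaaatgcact

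Gm21897 (1500 bases, chromosome 16, plus strand) is annotated as protein-coding, but its sequence reads as the 5′ part of LINE-1 ORF2, the part that holds the endonuclease. One frame ran open over all 500 codons, with 481 of them from an ATG at base 58. It shared 95.1% of 1500 aligned bases with Gm21833 and 93.9% of 1499 with Gm21750, a pair of loci annotated the same way. Bases 301 to 420 of the 3 loci are shown to let the copies be compared, with capitals where a copy differs from Gm21897. They lie at chr16:15317758-15317877, chr16:82828682-82828801 and chr14:73661525-73661644, all on the plus strand of GRCm38.
Gm21897: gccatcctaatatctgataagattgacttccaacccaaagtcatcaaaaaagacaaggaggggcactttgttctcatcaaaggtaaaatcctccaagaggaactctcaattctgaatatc
Gm21833: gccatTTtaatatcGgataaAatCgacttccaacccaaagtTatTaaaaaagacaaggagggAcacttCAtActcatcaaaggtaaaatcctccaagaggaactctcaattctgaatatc
Gm21750: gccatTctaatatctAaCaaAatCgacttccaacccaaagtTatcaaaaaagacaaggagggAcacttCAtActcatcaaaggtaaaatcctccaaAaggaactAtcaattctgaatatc

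Gm44248 (processed pseudogene, 1549 bases, chromosome 6, plus strand) carries retroviral gag-like sequence. Near its 3′ end, 2 CCHC zinc knuckles, the RNA-binding motif of the retroviral nucleocapsid, were found in 1 reading frame, at bases 1360 to 1401 and 1444 to 1485. The search looked for the CCHC zinc-knuckle pattern in the 3 frames of the annotated strand. Of 3001 genes whose longest transcript has 1400 to 1700 bases, 0.3% held the pattern and 0.0333%, Gm44248 itself, held a pair within 90 bases in frame. The longest run without a stop codon was 342 codons, 66.2% of the locus. The stretch with both knuckles (chr6:129850052-129850177, plus strand, GRCm38) is shown with the cysteine and histidine codons in capitals.
Gm44248: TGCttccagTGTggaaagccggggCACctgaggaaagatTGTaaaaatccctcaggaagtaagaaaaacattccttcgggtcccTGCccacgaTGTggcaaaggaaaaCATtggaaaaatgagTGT

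Gm42755 (TEC, 1493 bases, chromosome 9, minus strand) had no long reading frame, with at most 93 codons free of stops. Its best match was Gm42847, a TEC locus on chromosome 5, at 82.7% of 955 aligned bases, with 78 mismatches and 87 gap bases. Shown are bases 82 to 201 (chr9:109574024-109574143, minus strand) and the matching bases of Gm42847 (chr5:33991366-33991485, minus strand), the first aligned stretch of 120 bases without a gap. Capitals mark the 14 bases of Gm42847 that differ. As the stretch was taken for its lack of gaps, it shows substitutions only and none of the 87 gap bases of the whole alignment.
Gm42755: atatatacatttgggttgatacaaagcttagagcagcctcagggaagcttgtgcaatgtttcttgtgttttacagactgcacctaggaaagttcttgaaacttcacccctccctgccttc
Gm42847: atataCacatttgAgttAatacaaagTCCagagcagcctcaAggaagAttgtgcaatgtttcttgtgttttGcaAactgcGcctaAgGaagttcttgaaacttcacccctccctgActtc

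Gm43300 (TEC, 2043 bases, chromosome 3, minus strand) matched no other annotated transcript. Its longest stop-free run was 76 codons. Its first 120 bases (chr3:119729671-119729790, minus strand, GRCm38) are shown as the only one of the 5 sequences with no match among other genes.
Gm43300: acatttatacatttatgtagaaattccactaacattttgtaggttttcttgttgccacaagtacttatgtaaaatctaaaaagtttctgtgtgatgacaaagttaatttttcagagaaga

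The number of other genes with matching sequence separated the loci. Gm21897 matched transcripts of 252 other genes and Gm43238 of 130, in both directions, whereas Gm42755 matched 16, Gm44248 4 and Gm43300 0. Every one of the 310 words of 50 bases in Gm43238 also occurred in a transcript of another gene, as did 1270 of 1451 words (87.53%) in Gm21897. None of the 50-base words of Gm42755, Gm44248 or Gm43300 did. A 50-base read of Gm43238, taken alone, could therefore belong to another locus. The authors sequenced pairs of 50-base reads, and whether a pair could be assigned where a single read could not was not tested. How multiply mapped reads were counted is not given in the sources used here, so the 2 LINE-1 loci have uncertain counts. Only annotated transcripts were searched, so whether Gm42755, Gm44248 or Gm43300 have copies elsewhere in the genome was not tested. Near the start of Gm21897 the number of matching genes stepped up, and it reached 98 genes in the same direction and 63 in the opposite one.

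**Figure D1:**
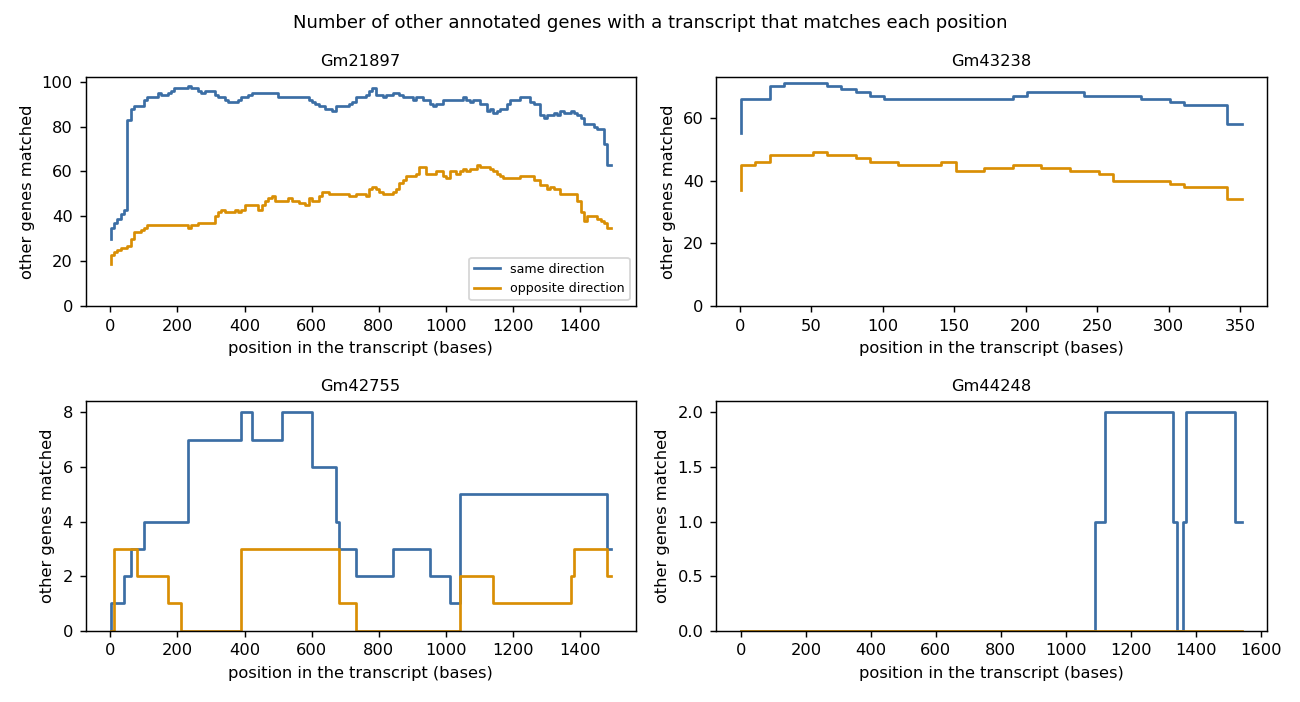
For 4 of the loci, the number of other annotated genes (vertical axis) with a transcript that matches each position in bases (horizontal axis), in the same direction (blue) and the opposite one (orange). Matches reach 98 genes in Gm21897 and 71 in Gm43238, but 8 in Gm42755 and 2 in Gm44248; Gm43300 had none and is not drawn.

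All 5 loci were poorer in GC than most genes. The GC content was 31.3% in Gm43300, 31.7% in Gm42755, 37.0% in Gm43238, 38.1% in Gm21897 and 44.1% in Gm44248, against a median of 49.4% over 20103 tested genes. The 2 LINE-1 loci had an adenine-rich sense strand, with 45.96% A in Gm43238 and 42.33% in Gm21897. The 5 loci had a median length of 1500 bases, under the 3613 bases of tested genes and the 2297 bases of 635 tested TEC genes.

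The position of the loci differed as well. Gm43300 lies on the strand of its host, Ptbp2, a splicing repressor of the polypyrimidine tract binding family, in a region between annotated exons that spans 12501 bases. It stood 1527 bases from the next exon on 1 side and 8931 on the other and overlapped no exon. Gm44248 lies in a 34065-base intron of Klra17, which encodes a receptor of the natural killer lectin-like family, on the strand opposite to it. Gm42755 lies between Fbxw15 and Fbxw24, 4469 and 26891 bases away, both F-box genes on the same strand. The 2 LINE-1 loci stood alone: the nearest gene was 94330 bases from Gm43238 (Gm24079) and 95949 bases from Gm21897 (Gm5404), and no protein-coding gene was nearer than 173367 bases (Arap2) and 233119 bases (Ube2v2), respectively.

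**Figure D2:**
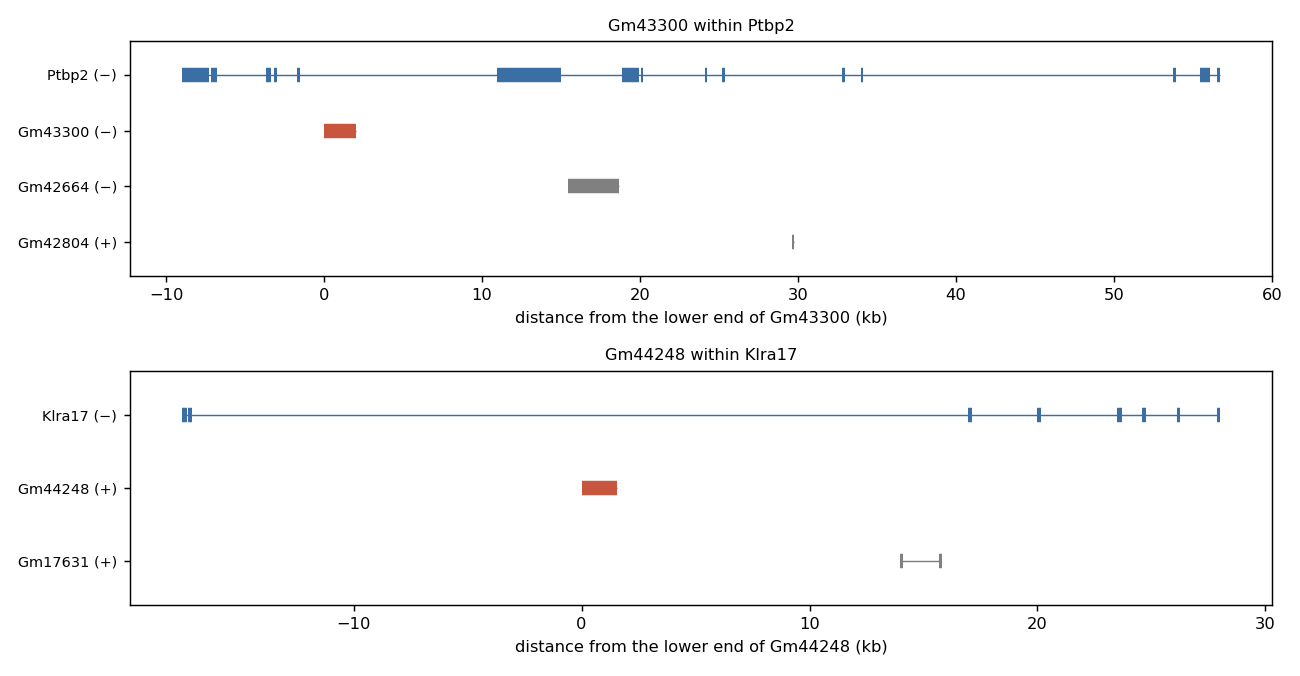
Annotated exons (thick bars) and spans (thin lines) around Gm43300 and Gm44248, with distance from the lower end of the locus in kb on the horizontal axis and strand in parentheses. Gm43300 lies between exons of Ptbp2 on the same strand, and Gm44248 between exons of Klra17 on the opposite strand.

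Library totals ran from 37811968 to 48954631 counts. Replicate 3 of both groups stood apart. The 10 liver markers summed to between 190.1 and 552.7 reads per 1e6 counted (CPM) in replicates 1 and 2 of both groups, but to 1939 in control 3 and 3143 in APAP+IBU 3, led by Afp and Alb. The 10 spermatid markers, with Prm1 and Prm2 the most abundant, summed to between 38.64 and 144.5 CPM in the 3 controls and between 1.767 and 5.93 in the exposed libraries, and all 10 had groups that did not overlap. None was at 0. Of 20162 tested genes other than the 5 loci, 1194 had groups that did not overlap with exposed lower. The germ cell genes Dazl and Ddx4 and the ovarian somatic genes Wnt4 and Fst were detected in all 6 libraries. The 8 erythroid markers, led by Hbb-y and Hbb-bs, ranged from 5642 to 14720 CPM in controls and from 2572 to 7598 in exposed ovaries. The part of liver, blood or spermatid RNA in the values of the 5 loci was not tested, and values without replicate 3 are given below. In bulk RNA, fewer cells of a type and less RNA per cell cannot be told apart. For the spermatid markers, whether the RNA came from within or outside the ovaries was not tested.

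With all 6 libraries, edgeR called 0 of 20167 genes at an adjusted p under 0.05 (percent called 0.0 in either direction), and 1254 (6.22%) had an unadjusted p under 0.05. DESeq2 called 235 genes in either direction. Of 27676 genes with an adjusted p in DESeq2, 21 (0.0759%) were called higher, the LINE-1 loci Gm43238 and Gm21897 among them. edgeR called none of the 5 loci with these 6 libraries, and all 5 passed the filter on low counts. As the loci were chosen on this contrast, nothing is read from either count.

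Gm43238, the ORF1 stretch, was the steadiest in controls. Its level was 0.708, 0.776 and 0.875 CPM in controls 1, 2 and 3, from 27, 29 and 38 reads. In exposed ovaries it was 5.67, 6.94 and 1.48 CPM, from 288, 318 and 57 reads. All exposed libraries were above all controls, but APAP+IBU 3 was far closer to the controls than the others. The mean rose from 0.786 ± 0.084 to 4.70 ± 2.86 CPM (SD, n = 3), and the fitted log2 fold change was 2.58 ± 0.54 (SE).

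Gm21897, the ORF2 stretch, had 0.996, 1.90 and 2.90 CPM in controls and 8.87, 11.15 and 3.798 CPM in exposed ovaries. These groups did not overlap, with 126 reads in control 3 and 146 in APAP+IBU 3 as the nearest pair. Means were 1.93 ± 0.952 and 7.94 ± 3.76 CPM (SD, n = 3), and the log2 fold change was 2.03 ± 0.49 (SE).

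Gm44248, the gag-like locus, was close to absent in controls 1 and 2. It had 4 and 7 reads there (0.105 and 0.187 CPM), but 72 reads in control 3 (1.657 CPM). Exposed ovaries had 152, 215 and 64 reads (2.995, 4.69 and 1.665 CPM). Control 3 and APAP+IBU 3 were thus at nearly the same level, and the groups met there. The log2 fold change of 2.24 had the widest error, 0.89 (SE).

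Gm42755 was the most abundant by CPM, at 1.39, 2.62 and 7.80 in controls and 14.4, 12.0 and 7.07 in exposed ovaries. Control 3 exceeded APAP+IBU 3, so the groups overlapped. On the log2 scale the fitted change was 1.5 ± 0.58 (SE).

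Gm43300 showed the same order, with 0.681, 1.28 and 5.41 CPM in controls and 8.29, 6.28 and 4.06 CPM in exposed ovaries. Here too control 3 lay above APAP+IBU 3. Its log2 fold change, 1.33 ± 0.68 (SE), was the smallest of the 5.

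**Figure D3:**
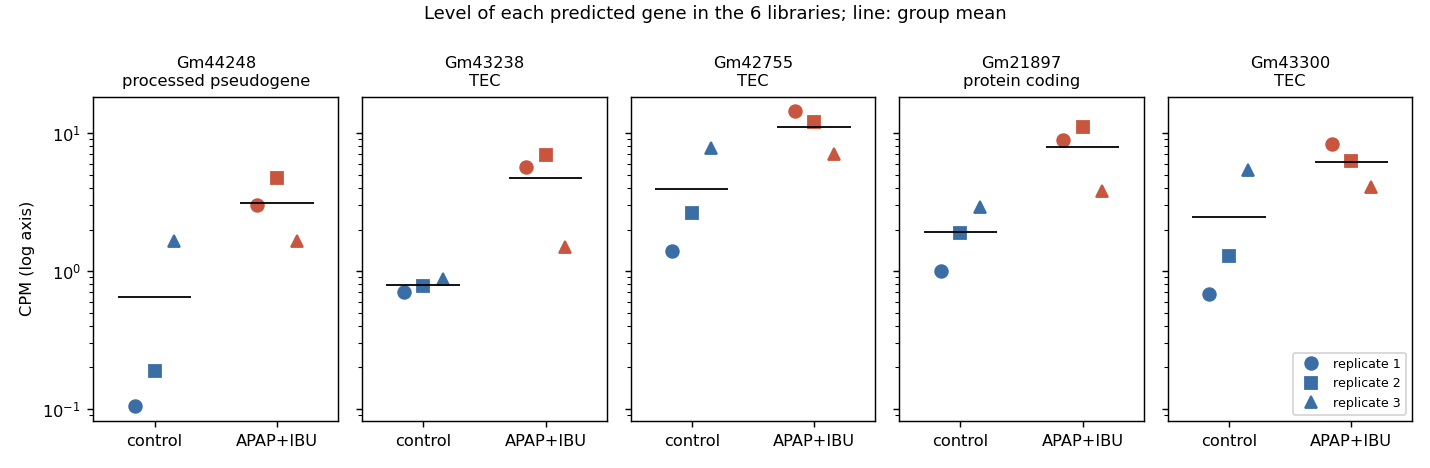
Level of each locus in CPM (log axis) in 3 control and 3 APAP+IBU libraries, with a marker shape for each replicate and a line at the group mean. Replicates 1 and 2 of APAP+IBU lie above every control at all 5 loci, whereas replicate 3 of the groups nearly meets at Gm44248 (1.657 and 1.665 CPM) and is crossed at Gm42755 and Gm43300.

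Groups did not overlap, with exposed higher, at 3 of the 5 loci, Gm44248 by the narrow margin given above. Over all tested genes this held for 4.78%. As the loci were picked on this contrast, nothing is read from the difference. Replicates decided the size. The exposed mean of replicates 1 and 2 was 26.3 times the control mean at Gm44248, 8.5 times at Gm43238, 7.42 times at Gm43300, 6.91 times at Gm21897 and 6.57 times at Gm42755. In replicate 3, exposed over control was 1.7 at Gm43238, 1.31 at Gm21897, 1.0 at Gm44248, 0.907 at Gm42755 and 0.75 at Gm43300. Control 3 itself was 11.3 times the mean of controls 1 and 2 at Gm44248 and 5.5 times at Gm43300, but 1.18 times at Gm43238.

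Without replicate 3 of each group, the log2 fold change was 4.71 ± 0.45 (SE) at Gm44248, 3.10 ± 0.27 at Gm43238, 2.91 ± 0.35 at Gm43300, 2.81 ± 0.33 at Gm21897 and 2.74 ± 0.31 at Gm42755. All 5 were called higher by edgeR there, where 14.2% of 20633 tested genes were, so this call was common. By log2 fold change over 6 libraries, Gm43238 stood 3rd of 20167 tested genes, Gm44248 8th, Gm21897 14th, Gm42755 69th and Gm43300 123rd.

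Per kilobase of transcript, control means ran from 0.419 CPM at Gm44248 through 1.20 at Gm43300, 1.29 at Gm21897 and 2.19 at Gm43238 to 2.64 at Gm42755. Exposed means ran from 2.01 at Gm44248 through 3.04 at Gm43300, 5.29 at Gm21897 and 7.46 at Gm42755 to 13.1 at Gm43238. The libraries of neighbours in these orders overlapped, except for Gm21897 and Gm43238 in controls, with 1.93 per kilobase as the highest value of the former and 1.97 as the lowest of the latter. The next 2 loci in the same list, left out here, were Gm42653 (TEC) with 2.36, 3.85 and 6.21 CPM in controls against 20.02, 12.96 and 5.98 in exposed ovaries, and Gm27028, a lincRNA that contains Mir30c-2, with 0.472, 1.15 and 1.89 against 5.457, 5.499 and 2.08 CPM.

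Across the 6 libraries, Pearson r of log2 CPM was highest between Gm42755 and Gm43300 (0.994) and lowest between Gm43238 and Gm43300 (0.744). The points share the groups and the liver-rich replicates, so r is a description. The 10 genes most like the mean profile of the loci, of 16055 compared, had r from 0.9933 to 0.9983 and included 9 protein-coding genes, among them Trio, Tbk1, Kalrn, Gpatch2l and Igdcc4. Their log2 fold changes were far smaller: Trio, a guanine nucleotide exchange factor, had 79.7, 87.1 and 101.6 CPM in controls and 117.2, 116.3 and 100.9 after exposure, a log2 fold change of 0.32. The closest to Gm43300 was Fam135a (r = 0.9994), to Gm44248 Pcnx (r = 0.9975), to Gm43238 Gm16023 (r = 0.9973) and to Gm21897 Ezh1 (r = 0.9968).

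The order of libraries also followed GC content and length across all genes. Deviations of single libraries from the mean log2 CPM had Spearman coefficients with GC of 0.471, 0.377 and -0.474 in controls 1, 2 and 3 and -0.420, -0.250 and 0.132 in APAP+IBU 1, 2 and 3, over 20103 genes. GC-poor genes were thus high in control 3 and in APAP+IBU 1 and 2, the libraries in which Gm42755 and Gm43300 were highest. After a correction for length and GC in each library, log2 fold changes were 2.27 ± 0.48 (SE) at Gm43238, 2.23 ± 0.85 at Gm44248, 1.80 ± 0.39 at Gm21897, 1.05 ± 0.39 at Gm42755 and 0.89 ± 0.49 at Gm43300. The values at Gm42755 and Gm43300 were lowered most by it, and that at Gm44248 least.

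With 6 libraries, edgeR called none of the host or neighbouring genes. With replicates 1 and 2 only, it called Ptbp2 and Gm42664 higher and Gm4332 lower, with adjusted p of 0.0126, 0.008 and 0.00623. In that setting 5607 of 20633 tested genes were called in either direction, so such calls were common and nothing is read from these. Ptbp2 had 126.0, 126.2 and 171.3 CPM in controls and 181.2, 165.2 and 151.0 after exposure, a log2 fold change of 0.23 ± 0.16 (SE; edgeR adjusted p = 0.699), which turned to -0.24 with the length and GC correction. Control 3 was the highest control for Ptbp2, as it was at every locus described here, so this is not particular to Gm43300 and its host. Another locus within Ptbp2, Gm42664, of the class sense intronic, lay on the same strand 13417 bases away. It had 0.865, 1.71 and 4.58 CPM in controls and 7.09, 5.13 and 3.69 in exposed ovaries. This was the order seen at Gm43300, and also at Gm42755 on another chromosome. The log2 fold change of Gm42664 was 1.15 ± 0.56 (SE, edgeR adjusted p = 0.692). Gm4332, a processed pseudogene 17886 bases on the other side and on the opposite strand, went the other way, at 117.5, 125.5 and 67.8 CPM against 55.2, 59.6 and 85.3, a log2 fold change of -0.64 ± 0.26 (edgeR adjusted p = 0.692).

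Klra17 was near the detection limit, from 0.134 to 0.367 CPM in controls and 0.390 to 0.611 in exposed ovaries, with a log2 fold change of 0.82 ± 0.46 (SE; edgeR adjusted p = 0.692). Gm17631, also inside Klra17, stayed under the filter. Fbxw15 and Fbxw24 on either side of Gm42755 were at or under 0.06905 CPM in all libraries. Around the LINE-1 loci, Arap2, Efcab1 and Ube2v2 had log2 fold changes of 0.20, 0.21 and 0.03, with edgeR adjusted p of 0.753, 0.753 and 0.939. With the length and GC correction these values turned to -0.06, -0.11 and -0.43.

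The classes of the loci were shifted in part. Of 632 other tested TEC genes, 494 (78.2%) had a log2 fold change above 0, with a median of 0.44, against 49.4% and a median of -0.00 over all tested genes. edgeR called 0 of them with 6 libraries. At an unadjusted p under 0.05, 67 TEC genes were higher and 13 lower in exposed ovaries, where 606 of all 20167 tested genes (3.0%) were higher. The median was 0.56 for 319 TEC genes inside an intron on the strand of the host and 0.29 for 313 others. For 310 of the intronic ones with a tested host, the TEC gene exceeded its host in 235 pairs (75.8%), with medians of 0.56 for TEC genes and 0.12 for hosts. Processed pseudogenes, the class of Gm44248, went the other way, with a median of -0.24 over 997 genes. With the length and GC correction the TEC median was 0.35 and the processed pseudogene median -0.09.

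TEC genes took 0.0863, 0.0996 and 0.148 percent of counts in controls and 0.177, 0.165 and 0.120 percent in exposed ovaries. The groups overlapped, as control 3 exceeded APAP+IBU 3. The means were 0.111 ± 0.0327 and 0.154 ± 0.0300 percent (SD, n = 3), and the difference of 0.0424 percentage points had p = 0.20 in a two-sided exact permutation test, in which 3 against 3 cannot go below 0.10.

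Other LINE-1-like loci were looked up by sequence, a list made after the values had been seen. It held 31 genes whose transcripts match Gm21897 or Gm43238 in the same direction over at least 200 bases and 25 percent of their length. Of 26 tested, 24 (92.3%) had a log2 fold change above 0 and the median was 0.60, or 0.37 after the length and GC correction, when 20 were above 0. Groups did not overlap, with exposed higher, in 9 of the 26 (34.6%), against 4.78% of all tested genes. These loci share sequence and can share reads, so they are not independent of one another or of the 2 LINE-1 loci described. All 18 tested loci of the list that are not protein-coding had values above 0, with a median of 0.71, or 0.50 after the length and GC correction. The 2 below 0 were protein-coding, Psma2 at -0.30 and Mrpl48 at -0.41, and the other tested protein-coding genes were above 0. Psma2, Mrpl48, Slc38a1, Traf5, Sik2 and Nipal2 have 9 to 17 exons, and their counts cover the whole gene, not only the stretch that matches LINE-1.

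Gm37404, the near-copy of Gm43238 shown above, had 0.131, 0.214 and 0.0921 CPM in controls and 0.670, 1.135 and 0.390 after exposure, a log2 fold change of 2.32 ± 0.55 (SE; edgeR adjusted p = 0.326). Gm42927, a processed pseudogene of 3841 bases, had the highest level among the loci that are not protein-coding, with 12.79, 21.19 and 15.97 CPM in controls and 61.1, 85.6 and 22.1 in exposed ovaries. Its log2 fold change was 1.76 ± 0.44 (SE; edgeR adjusted p = 0.412), and the exposed libraries were all above the controls. Gm21750, whose sequence is shown beside Gm21897, was low, at 0.262, 0.294 and 0.391 against 0.768, 0.589 and 0.546 CPM. Summed over the 21 LINE-1-like genes that are not protein-coding, the level was 34.7, 48.8 and 49.55 CPM in controls and 110.3, 138.1 and 54.5 in exposed ovaries. Without Gm42927 it was 21.9, 27.6 and 33.6 against 49.2, 52.6 and 32.4, and APAP+IBU 3 then lay below control 3.

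**Figure D4:**
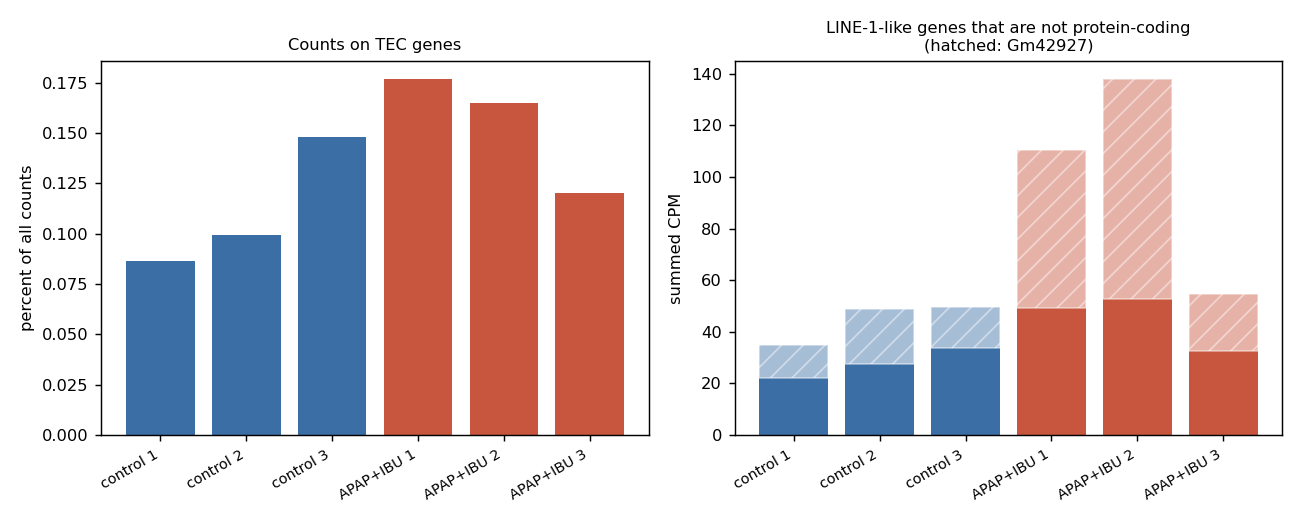
Left, percent of all counts on TEC genes; right, summed CPM of LINE-1-like genes that are not protein-coding, with Gm42927 hatched, in each of the 3 control (blue) and 3 APAP+IBU (red) libraries. Control 3 takes 0.148 percent of counts on TEC genes, above the 0.120 percent of APAP+IBU 3, and the LINE-1-like sum is highest in APAP+IBU 1 and 2 at 110.3 and 138.1 CPM.

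**Figure D5:**
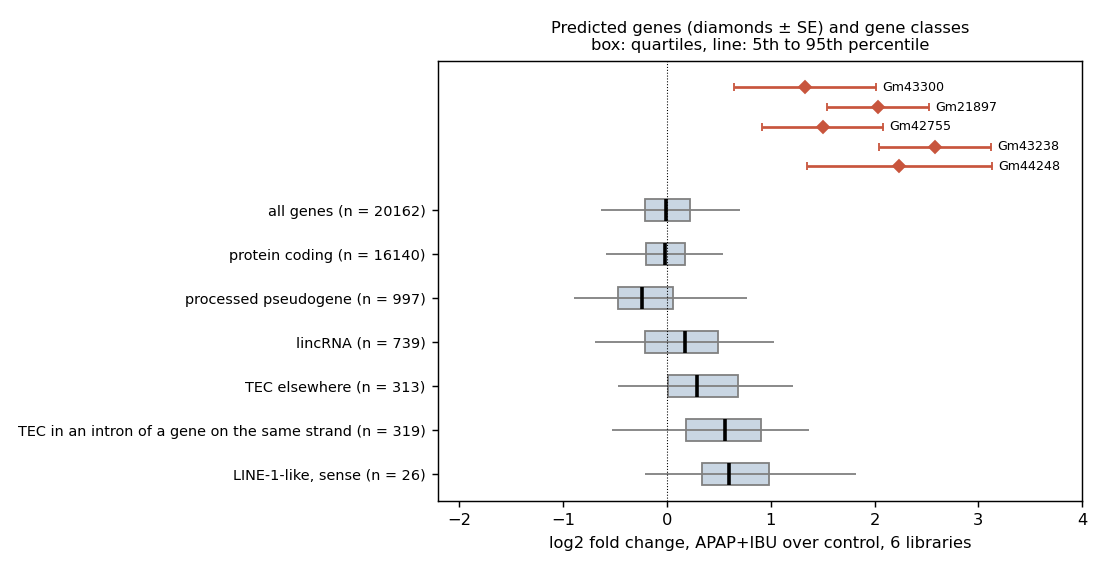
Log2 fold change of exposed over control, with the 5 loci as diamonds with SE and gene classes as boxes (quartiles, median line, 5th to 95th percentile whiskers, loci left out). The medians are -0.00 for all genes, 0.56 for TEC genes in an intron of a gene on the same strand and 0.60 for LINE-1-like genes. The LINE-1-like class also holds multi-exon protein-coding genes.

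Lists of nuclear RNA were set beside the loci, since RNA kept in or removed from the nucleus includes intronic and repeat-derived transcripts. Of 14 tested nuclear noncoding RNAs, 12 had a log2 fold change above 0, with a median of 0.35 that dropped to 0.04 with the length and GC correction. Xist, the RNA that coats the inactive X chromosome, was the most abundant, with 309.0, 495.0 and 839.2 CPM in controls and 1213, 810.6 and 615.8 in exposed ovaries (log2 fold change 0.68 ± 0.38 SE; edgeR adjusted p = 0.692). Malat1, a nuclear speckle RNA, had 108.7, 139.6 and 198.7 CPM in controls and 310.3, 278.5 and 159.2 in exposed ovaries (log2 fold change 0.74 ± 0.29 SE; edgeR adjusted p = 0.692), and Rian and Meg3, from 1 imprinted cluster, had 0.25 and 0.21. Of 24 tested genes of nuclear RNA decay, among them the exosome and its cofactors, 8 were above 0 and the median was -0.05. Single values ran from -0.33 to 0.62. Among the most abundant, Mtrex, the helicase of the nuclear exosome, had -0.04, Srrt -0.12, Xrn2 0.04 and Ncbp1 -0.13. edgeR called 0 genes of either list with 6 libraries. At an unadjusted p under 0.05, 1 noncoding RNA and 0 decay genes passed. Of all 20167 tested genes, 1254 (6.22%) did, so nothing is read from these counts.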

How the data were processed

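The authors sequenced stranded polyadenylated libraries of pooled 13.5 dpc ovaries, mapped the reads to mm10 with TopHat2 2.0.14 and Bowtie2 2.1.0 and counted them per gene with HTSeq 0.6.1 (submitters' processing notes); strand and multiple-mapping settings of the counting are not given in the sources used here. The deposited values are raw counts per Ensembl gene in 1 column for each of the 6 libraries, 37811968 to 48954631 counts in total. Of 48709 rows, 48349 had an entry in GENCODE M21, whose assembly, GRCm38, is mm10 under another name and whose gene models are later than those counted. Sequences were read from the GENCODE transcripts.

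Tests were run with edgeR 4.0.16 (quasi-likelihood, TMM, default low-count filter, 20167 genes, Benjamini-Hochberg, threshold 0.05) and checked on simulated counts. The simulation used the same fixed dispersion for all genes and changed only well-counted ones. It therefore does not show how the test performs at low counts or with the spread of these libraries. Levels are CPM with TMM factors. Alternatives were DESeq2 1.42.0, other size factors or filters, a replicate block, a length and GC correction (loess, span 0.3), and leaving out libraries. Transcripts were matched with BLAST 2.17.0 (e-value limit 1e-10). The paper describes each pool as embryonic gonads combined across dams of an independent experiment, and each experiment had dams of both conditions. Neither labels nor methods tie a replicate number to an experiment, so whether the numbers pair the groups is not known. The p-values measure the spread between pools.

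The 5 loci and all lists were chosen with earlier results of these data known. Genes named are the loci, the next 2 of the same ordered list, hosts and nearest genes, best sequence matches, the most alike profiles (mean of at least 1 CPM; that for Gm42755 is not reported here) and the most abundant genes of each list; Gm37404, Gm42927, Gm42664, Psma2 and Mrpl48 were picked, or described more fully, after their values were seen. Mesonephros markers, led by Emx2 and Cdh16, had a median log2 fold change of 0.09. Pregranulosa markers had -0.00, germ cell markers -0.03, liver markers 0.44, erythroid markers -0.60 and spermatid markers -4.38. Over the alternatives the liver median ran from -1.63 (without APAP+IBU replicate 3) to 1.70 (without control replicate 3), and the pregranulosa median from -0.445 (replicates 1 and 2 only) to 0.27 (without control replicate 1). The mesonephros and germ cell medians changed sign as well, within -0.081 to 0.234 and -0.197 to 0.0652, so none of these 4 lists has a settled direction.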

Additional observations from a re-analysis of the deposited data

How the results depend on the processing

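The log2 fold change of all 5 loci stayed above 0 under each of 13 alternatives, from 0.887 to 2.91 at Gm43300, 1.05 to 2.74 at Gm42755, 1.70 to 2.81 at Gm21897, 2.05 to 3.10 at Gm43238 and 1.74 to 4.71 at Gm44248; as the loci were chosen on these libraries, this is no sign of stability. The number of genes called over the whole table moved from 0 to 235 with DESeq2, 120 with all genes of at least 1 count, 2 with the replicate block, 29 with the replicate block plus length and GC correction and 5607 with replicates 1 and 2 only. It ranged from 0 to 1064 when 1 library was left out, the 1064 being without control replicate 3, and the cause was not tested. Deviations of same-numbered libraries had correlations of -0.069, -0.015 and -0.044. These cannot decide whether replicate numbers pair the samples, as library-wide trends such as that with GC enter them. Liver markers were highest in replicate 3 of both groups. The difference in TEC share stayed positive in all alternatives, from 0.0254 to 0.0779 percentage points, including 0.0409 without the 5 loci, an alternative chosen after seeing the data; it ranged from 0.0299 to 0.0609 with 1 library left out, and within same-numbered pairs (replicate block) it was 0.0424, p = 0.50 by an exact sign-flip permutation test that cannot go below 0.25. The TEC median was 0.315 to 0.773 and the LINE-1-like median 0.368 to 1.15. Depth limits Gm44248 most, with 4 and 7 reads in controls 1 and 2.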

Other observations

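Other classes of noncoding locus were shifted too, in values that carry no test as classes. Of 77 tested sense intronic transcripts, which lie in introns on the strand of their host like Gm43300, 70 had a log2 fold change above 0, with a median of 0.65 (0.54 with the length and GC correction). Long intergenic noncoding RNAs had a median of 0.17 over 739 genes and antisense transcripts 0.10 over 654. edgeR called 0 of the 77 sense intronic transcripts with 6 libraries; at an unadjusted p under 0.05, 8 were higher and 1 lower in exposed ovaries, where 606 of all 20167 tested genes (3.0%) were higher.

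Loci that match the LINE-1 stretches in the opposite direction were 10 genes, the multi-exon protein-coding genes Mia2, Napg and Atf7ip among them. All 8 that were tested had a log2 fold change above 0, with a median of 0.98, whereas with the length and GC correction 6 of the 8 did and the median was 0.79. Gm42519, whose transcript runs against the sequence of Gm21897 over 1500 bases, had 1.26, 1.63 and 3.36 CPM in controls and 4.98, 3.82 and 3.46 in exposed ovaries. Control 3 was again the highest control and nearly level with APAP+IBU 3. These loci were looked up after values had been seen.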
